A study of Mus musculus with 16 samples.

Results

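Cytochrome P450 enzymes of families 1 to 4 were described in the livers of mice with and without hepatocyte Fgl1. The genes were found by symbol (Cyp, a family number from 1 to 4, a subfamily letter and a gene number) and by a mean of at least 0.1 FPKM, a count of fragments scaled to transcript length and library size, over all libraries. The symbol matched 69 of the 17003 genes in the table, and 57 of them passed the minimum, which 12770 genes passed in all. Of the 12 that did not, 6 were listed at 0 in every mouse, among them Cyp2b13, Cyp3a41b and Cyp4x1. At the threshold, Cyp1b1 (mean 0.107 FPKM), Cyp2b9 (0.141) and Cyp4f39 (0.174) were the lowest that passed, and Cyp2j8 (0.0925), Cyp3a44 (0.0681) and Cyp3a41a (0.00813, at 0 in 13 mice) the highest that did not.

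Liver polyA RNA of 16 fed male mice, 8 weeks old, was sequenced in strand-specific libraries on the DNBSEQ platform, with 1 library per mouse and a depth that is unknown. All mice were Fgl1 fl/fl, with floxed Fgl1 alleles, and ate normal chow. The 8 Fgl1 LKO mice also carried Cre recombinase under the albumin promoter (the Alb-cre transgene), which acts in hepatocytes, and the 8 Fgl1 LWT mice were floxed littermates without Cre. The LWT mice did not carry Cre, so that an effect of Cre or of its insertion and an effect of losing Fgl1 cannot be told apart. Mice are named here by genotype and replicate number, LWT1 to LWT8 and LKO1 to LKO8. The mouse numbers in the labels fall into 4 runs, 36 to 38 (LWT1, LWT2 and LWT3 only), 48 to 55 (1 LWT and 3 LKO), 60 to 64 (2 LWT and 3 LKO) and 69 to 72 (2 LWT and 2 LKO). What the runs stand for is not given in the sources used here.

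These enzymes are haem proteins of the endoplasmic reticulum that take electrons from the reductase Por and insert oxygen into their substrates. Families 1 to 3 are best known for the oxidation of drugs, toxins and steroids, and family 4 for the hydroxylation of fatty acids. Many are made mainly in hepatocytes, in zones of the liver lobule and at levels that differ between males and females, and their transcription answers to ligand-activated receptors such as AhR, CAR, PXR and PPARalpha.

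The targeted gene followed the labels. Fgl1, which encodes a secreted protein of the fibrinogen-related family, lay between 158 and 1331 FPKM (median 312) in LWT and between 13.2 and 89.99 FPKM (median 50.3) in LKO. No LKO mouse reached the lowest LWT mouse. The difference was -3.11 ± 0.49 (SE) on the log2(FPKM + 1) scale, on which all differences below are given. The exact permutation p was 0.000155, the smallest that the assignments of 8 and 8 mice can give, and the limma p was 0.0725 after adjustment over all genes. Without the mice of the run 36 to 38 the difference was -3.71 (limma adjusted p = 0.0453).

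The tissue markers fitted liver. Hepatocyte genes were high in every mouse, with Alb at a mean of 41750.3 FPKM and the 5 markers summing to between 53151 and 93296 FPKM. The adipocyte markers summed to at most 0.06 FPKM, those of kidney to at most 0.05 and those of skeletal muscle to at most 0.05, with Plin1 and Ckm listed at 0 throughout. Of the pancreas markers, Pnlip was listed at 0 and Cela1 had a mean of 15.3 FPKM. Other liver cells were present, with medians of 87.9 FPKM for the 5 Kupffer cell markers (highest Cd5l, mean 39.0), 48.7 for 4 of sinusoidal endothelium (Clec4g, 30.4), 71.1 for 5 of stellate cells (Dcn, 61.3), 4.49 for 4 of cholangiocytes (Sox9, 1.57), 4.98 for 5 of leukocytes (S100a8, 5.68) and 446 for 3 erythroid genes (Hba-a1, 462). A listed 0 can come from the counting, since Hbb-bs was at 0 in 13 mice while Hba-a1 had at least 247 FPKM in every mouse. In bulk liver, fewer cells of a type and less RNA per cell cannot be told apart.

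The P450 genes ranged in mean from 0.107 FPKM (Cyp1b1) to 2902 FPKM (Cyp2e1). They made up 1.27% to 2.06% of the summed FPKM of a mouse (median 1.52%). Of the 57, 20 had a mean of at least 100 FPKM, 13 lay between 10 and 100, 11 between 1 and 10 and 13 under 1, and 53 were above 0 in every mouse. Family 2, with 35 genes, held 81.6% of their summed FPKM, family 3 (4 genes) 10.1%, family 4 (15 genes) 5.84% and family 1 (3 genes) 2.50%. The 12 most abundant genes together held 82.2%.

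Cyp2e1, the ethanol-inducible enzyme of pericentral hepatocytes, was the most abundant, with 2253 to 4050 FPKM (median 3115) in LWT and 1968 to 4202 (median 2639.8) in LKO. Cyp2f2, a marker of periportal hepatocytes, followed with 840 to 1447 FPKM (median 998) in LWT and 799 to 1195 (median 1075) in LKO. Cyp2d9, a male-biased steroid hydroxylase, had 702 to 1116 FPKM (median 898) in LWT and 673 to 1211 (median 928) in LKO. The genotypes overlapped over most of their range for all 3 genes. Cyp1a2, the AhR target that metabolises caffeine, lay between 221 and 372 FPKM (median 295) in LWT and between 205 and 322 (median 275) in LKO, whereas Cyp1a1, its inducible neighbour, stayed between 0.14 and 0.61 FPKM in all mice. The other genes among the 12 highest were Cyp3a11, Cyp2c29, Cyp2d10, Cyp2d26, Cyp2c70, Cyp2a12, Cyp2c50 and Cyp3a25, with means from 225 to 815 FPKM.

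**Figure D1:**
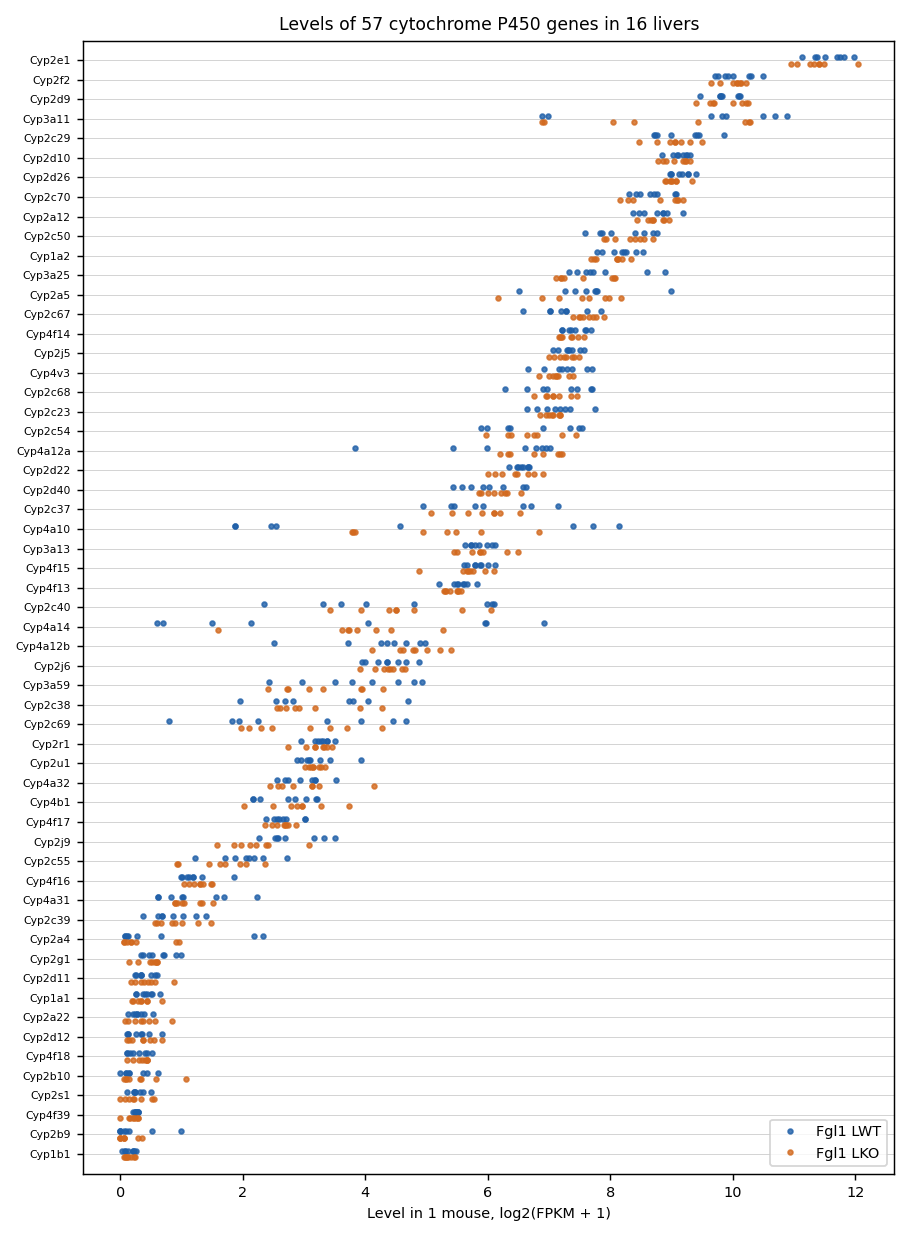
Level of each of the 57 genes in each mouse on the log2(FPKM + 1) scale, with genes ordered by falling mean, LWT in blue and LKO in orange. Cyp2e1 is at the top and Cyp1b1 at the bottom, and the points of Cyp3a11, Cyp4a10 and Cyp4a14 spread farthest.

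All mice were male, so that no level could be compared between the sexes. Of the listed male-biased genes, Cyp2f2 was the most abundant (mean 1054 FPKM). The 6 male-biased genes summed to between 1946 and 3231 FPKM, and the 12 female-biased genes to between 10.4 and 109.5 FPKM, of which Cyp2c40 was the most abundant (mean 30.6) and Cyp2b13 and Cyp3a41b were listed at 0. Cyp2a4, a female-biased testosterone hydroxylase, was under 1 FPKM in all mice but LWT2 (4.05 FPKM) and LWT4 (3.56 FPKM). Cyp2b9 was highest in the same mice, with 0.98 and 0.43 FPKM. Cyp4a12a, the male-biased arachidonic acid hydroxylase, lay between 72.8 and 147 FPKM in LKO and between 13.3 and 128 in LWT. LWT7 was lowest for it and for its neighbour Cyp4a12b (4.71 FPKM).

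Most of the genes lie in tandem arrays. On GRCm39 with the GENCODE vM39 annotation, 47 of the 57 fell into 7 arrays of at least 3 genes whose starts were at most 1 Mb apart. The Cyp2c array on chromosome 19 held 12 genes over 1180.3 kb, with means from 0.896 FPKM (Cyp2c39) to 564 FPKM (Cyp2c29). The array on chromosome 7 held 9 genes of the Cyp2a, Cyp2b, Cyp2f, Cyp2g and Cyp2s subfamilies, from 0.141 FPKM (Cyp2b9) to 1054 FPKM (Cyp2f2). The Cyp4a and Cyp4b1 array on chromosome 4 held 7 genes over 349 kb and the Cyp2d array on chromosome 15 held 7 over 424 kb. Genes of 1 array thus lay at very different levels.

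Close paralogs share sequence, and their reads could have been split or shared by the counting. Of the 57 longest coding transcripts, 22 had at least 1 window of 150 bases, the read length, that also occurs unchanged in another gene of these families. For 4 genes the share of such windows was over 10%, with 25.9% for Cyp4a12b, 24.5% for Cyp4a12a, 17.9% for Cyp2c69 and 17.3% for Cyp2c40. The levels of these pairs relative to each other are therefore uncertain. Cyp2j9, Cyp3a11 and Cyp4a14 had no shared window, and Cyp4a10 had 4.69%.

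No difference between genotypes passed the test for a P450 gene. None of the 57 had an adjusted p under 0.05 in limma, beside 0 (0%) of all 12770 genes. At an unadjusted p under 0.05, 1 was higher in LKO (4.64% of all genes were) and 1 lower (2.36% of all genes were). No P450 gene separated the genotypes entirely. Among all genes, 1 gene (0.00783%) had every LKO mouse below every LWT mouse and 1 gene (0.00783%) every LKO mouse above. The median difference was -0.04 over the 57 genes and 0.01 over all genes, with 21 of the 57 higher and 36 lower in LKO. Of all genes, 7126 were higher and 5644 lower. After median-ratio scaling these were 20 and 37 of the 57, and 6477 and 6293 of all genes. After quantile normalization they were 18 and 39, and 6116 and 6654. The number of all genes at an unadjusted p under 0.05 was 593 higher and 302 lower in LKO, but 468 and 518 after median-ratio scaling and 412 and 593 after quantile normalization, so that the balance of directions depends on the scaling. In both, 1 P450 gene lay on each side. Median-ratio scaling moved the median of all genes by over 0.1 in LWT8 only (by 0.117). By subfamily the medians ran from -0.46 for 4 Cyp3a genes to 0.37 for 6 Cyp4a genes, none of which passed the unadjusted threshold. Markers of other cells were given the same fit. All 5 Kupffer cell markers had a higher mean in LKO, 2 of them (Adgre1 and Vsig4) at an unadjusted p under 0.05, and their part in any P450 difference was not tested. They summed to 66.3, 51.7 and 62.1 FPKM in LWT1, LWT2 and LWT3, the run without LKO mice. In LWT4 to LWT8 the sums were 75.6 to 108 FPKM, and in LKO 63.3 to 137 FPKM.

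Cyp2j9, of a subfamily whose enzymes metabolise arachidonic acid (Gene ID 74519, chromosome 4), had 3.79 to 10.4 FPKM (median 5.20) in LWT and 1.98 to 7.46 FPKM (median 3.48) in LKO. Of the LKO mice, 7 of 8 lay below the LWT median, and LKO6 lay above it. The difference was -0.62 ± 0.20 (SE), with an exact permutation p of 0.0166 and a limma adjusted p of 0.696. The 3 highest values belonged to LWT1, LWT2 and LWT3, the run of mouse numbers that holds no LKO. Without that run the difference was -0.32 ± 0.19 (limma adjusted p = 0.805), and within the runs that hold both genotypes it was -0.55, 0.02 and -0.57.

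Cyp2c67 (Gene ID 545288, chromosome 19) was the gene that was higher, with 94.3 to 229.6 FPKM (median 149.98) in LWT and 167 to 238 FPKM (median 193) in LKO. All LKO mice lay above the LWT median, but LWT6 and LWT8 lay within the LKO range. The difference was 0.39 ± 0.14 (SE), with an exact permutation p of 0.018 and a limma adjusted p of 0.696. Within the runs that hold both genotypes it was 0.70, -0.05 and 0.56. With a term for run it was 0.35 (limma unadjusted p = 0.0633). Without the run 36 to 38 it was 0.36 (limma unadjusted p = 0.0543), so that neither passed the unadjusted threshold. The transcript of Cyp2c67 shares 7.51% of its windows with paralogs. Cyp2j9 and Cyp2c67 were named for their limma p in the same mice. Their exact permutation p, which were not adjusted, are therefore no separate support.

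The 8 targets of CAR and PXR, the receptors that respond to drugs, had 3 positive and 5 negative differences, and none passed the unadjusted threshold. Cyp2c29, a pericentral enzyme of the Cyp2c array, had 419 to 924 FPKM (median 587) in LWT and 355 to 719 FPKM (median 529.97) in LKO. Cyp2c55 had 1.34 to 5.62 FPKM (median 3.22) in LWT and 0.90 to 4.12 FPKM (median 2.18) in LKO. The ranges of both genes overlapped, and the difference for Cyp2c55 was -0.40 (exact permutation p = 0.117). Cyp2b10, the gene most often used to show CAR activity, had at most 1.10 FPKM in any mouse. Among the remaining genes, named after their values were seen, Cyp2r1, a vitamin D 25-hydroxylase gene, had 5.67 to 10.4 FPKM over all mice, Cyp2j5 127.7 to 188.6 and Cyp4f14 142.6 to 204. The SD of these 3 genes within genotype was 0.16 to 0.20.

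**Figure D2:**
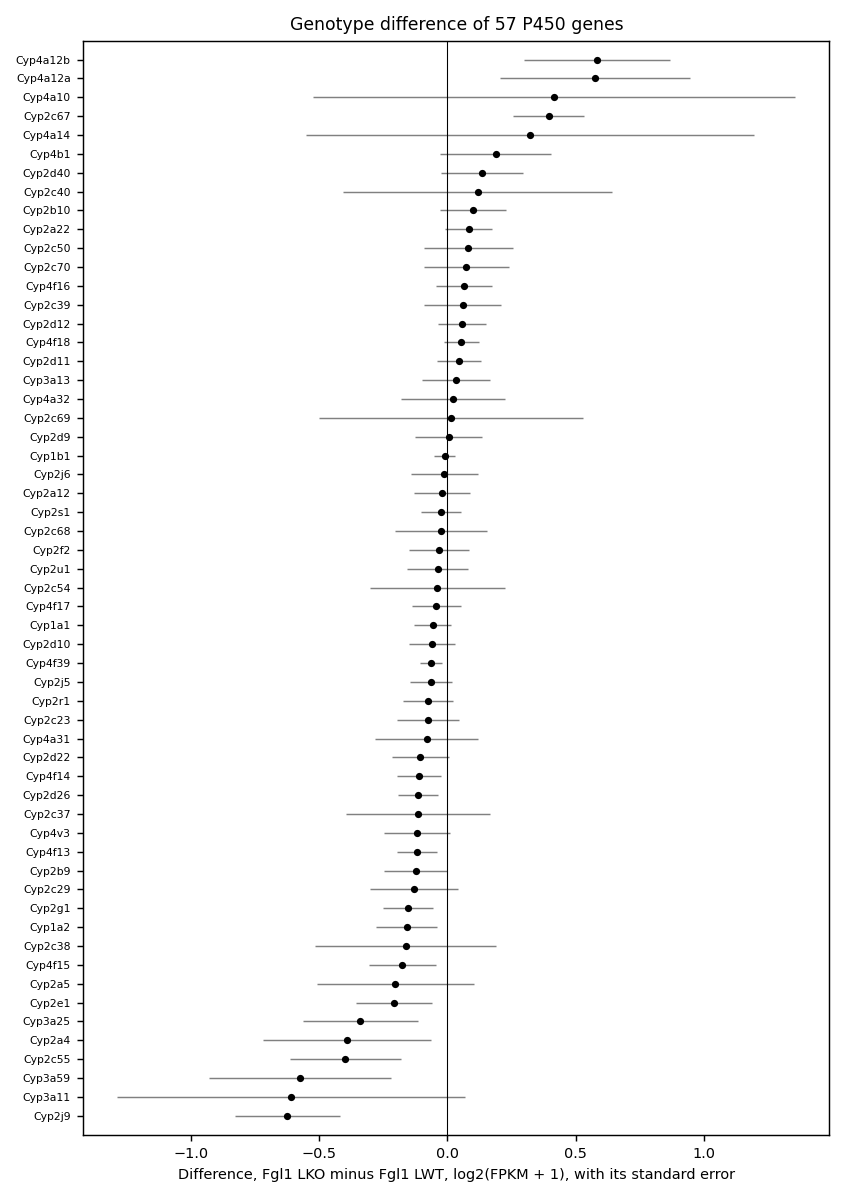
Difference between Fgl1 LKO and Fgl1 LWT in log2(FPKM + 1) for each of the 57 genes (points) with its limma standard error (bars, n = 8 mice per genotype). Cyp2j9 lies at -0.62 and Cyp2c67 at 0.39, and the bars of Cyp4a10, Cyp4a14 and Cyp3a11 are the longest.

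Genes that serve the P450 enzymes were looked at as a list. Of 28 such genes (reductases, cytochrome b5, haem supply, receptors and factors) 26 passed the minimum, 12 of them with a higher and 14 with a lower mean in LKO. In limma, only Por passed the unadjusted threshold and none the adjusted one. Por, the reductase on which all these enzymes depend, had 35.2 to 71.3 FPKM (median 55.1) in LWT and 57.2 to 93.7 FPKM (median 76.6) in LKO. Every LKO mouse lay above the LWT median, and the ranges overlapped. The difference was 0.46 ± 0.13 (SE), with an exact permutation p of 0.00668 and a limma adjusted p of 0.696. By exact permutation, Cyb5a (-0.12, p = 0.0347) and Arnt (0.15, p = 0.0392, named after its value was seen) were also under 0.05 before any adjustment. Por had no called slope on the acute-phase score described below. The 8 most abundant genes of the list were Cyb5a, an electron donor to several P450 enzymes, Pgrmc1, Cyb5r3, Ephx1, Hnf4a, Cyb5b, Cebpa and Rxra, with means from 107 to 887 FPKM.

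Many P450 genes varied widely between mice of the same genotype. The median SD within genotype was 0.28 over the 57 genes and 0.17 over all genes, and 14 of the 57 (24.6%) had an SD above 0.5, as did 3.36% of all genes. Cyp4a10 ranked 6, Cyp4a14 9, Cyp3a11 14 and Cyp2c69 33 by this SD among the 12770 genes. Cyp2c40 (SD 1.18) lay between Cyp3a11 (1.52) and Cyp2c69 (1.15).

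**Figure D3:**
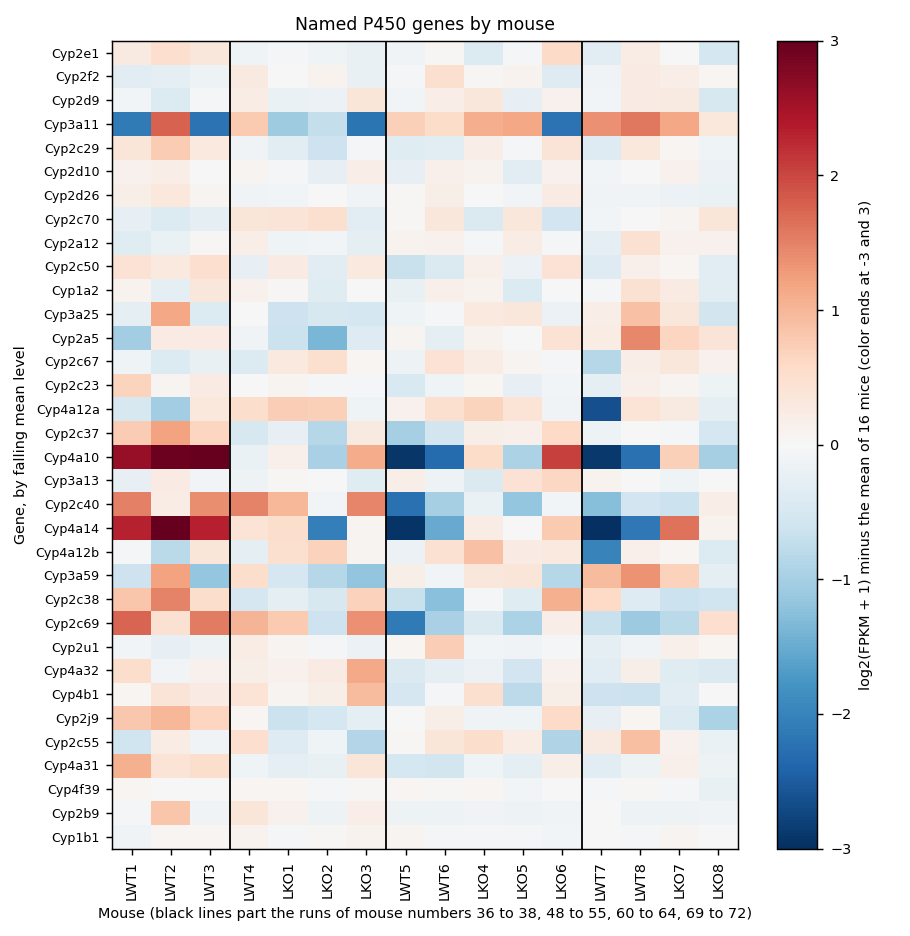
Level of 34 named P450 genes in each mouse as log2(FPKM + 1) minus the gene's mean over 16 mice, with mice ordered by run of mouse numbers. Cyp4a10 and Cyp4a14 are high in LWT1, LWT2 and LWT3, and Cyp3a11 is low in 6 mice of both genotypes.

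Cyp3a11, the main hepatic Cyp3a enzyme and a PXR target, fell into low and high mice. It lay between 117 and 1891 FPKM (median 926) in LWT and between 117 and 1238 FPKM (median 512) in LKO. LWT1, LWT3, LKO1, LKO2, LKO3 and LKO6 had at most 335 FPKM, and the other 10 mice at least 689.96. The genotype difference was -0.61, within the spread of the mice (exact permutation p = 0.433). Without the run 36 to 38 it was -1.31 ± 0.59 (limma unadjusted p = 0.0442, adjusted p = 0.773), with a term for run -1.04 (adjusted p = 0.718), and within the runs that hold both genotypes -2.11, -0.62 and -0.73. The same 6 mice were the lowest for Cyp3a59, with 4.34 to 7.45 FPKM against 8.97 to 29.5 in the others. Of the 6 mice lowest for Cyp3a25, 5 were among them. Cyp3a13, which lies apart from these neighbours on chromosome 5, did not follow, and ranged from 44.4 to 89.5 FPKM in those 6 mice and from 42.9 to 78.3 in the others. The low mice stood in 3 of the 4 runs of mouse numbers. They were singled out by these values, so that no test was made between them and the others.

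The bases before the start of these Cyp3a genes are shown because 5 or 6 of the same mice were lowest for them, with those of Cyp2c40 and Cyp2c69, a further pair described below. Sequences are from RefSeq (GRCm38.p6), are written 5′ to 3′ on the strand of the gene and end at the base before its start. They lie at chr5:145879855-145880104 (minus strand), chr5:146009619-146009868 (minus), chr5:146079008-146079257 (plus), chr19:39812815-39813064 (minus) and chr19:39886770-39887019 (minus), in the order given. Of 2 entries for Cyp3a25, the one with the higher coordinates is given. Capitals mark CAAAGNNCA, searched on both strands, a form of the element bound by HNF4 receptors. It was picked after 23 patterns had been searched in these sequences.
Cyp3a11: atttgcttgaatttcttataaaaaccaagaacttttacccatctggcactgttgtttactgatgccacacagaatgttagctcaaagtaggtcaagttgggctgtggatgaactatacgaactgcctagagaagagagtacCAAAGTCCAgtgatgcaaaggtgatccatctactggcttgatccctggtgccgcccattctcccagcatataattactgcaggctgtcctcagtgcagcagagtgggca
Cyp3a25: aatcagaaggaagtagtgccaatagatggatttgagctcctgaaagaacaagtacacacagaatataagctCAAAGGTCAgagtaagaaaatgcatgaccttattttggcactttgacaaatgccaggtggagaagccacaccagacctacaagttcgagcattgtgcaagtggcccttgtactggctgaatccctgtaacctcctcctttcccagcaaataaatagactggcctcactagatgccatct
Cyp3a59: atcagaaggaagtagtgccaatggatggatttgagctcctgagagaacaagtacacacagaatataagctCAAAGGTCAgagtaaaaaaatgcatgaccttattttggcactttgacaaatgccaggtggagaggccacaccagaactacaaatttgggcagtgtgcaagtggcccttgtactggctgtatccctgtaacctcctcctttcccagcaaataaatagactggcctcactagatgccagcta
Cyp2c40: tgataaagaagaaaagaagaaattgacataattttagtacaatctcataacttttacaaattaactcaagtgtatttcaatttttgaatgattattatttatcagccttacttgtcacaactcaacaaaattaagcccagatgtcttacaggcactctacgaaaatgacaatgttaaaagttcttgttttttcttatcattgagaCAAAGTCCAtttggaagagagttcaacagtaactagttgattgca
Cyp2c69: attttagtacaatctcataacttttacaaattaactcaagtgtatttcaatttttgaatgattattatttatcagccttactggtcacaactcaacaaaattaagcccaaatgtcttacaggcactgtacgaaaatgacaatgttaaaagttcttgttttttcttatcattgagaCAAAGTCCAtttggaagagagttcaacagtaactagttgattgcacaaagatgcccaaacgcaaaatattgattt

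Of the 57 genes, 45 had such a sequence of 250 bases. Cyp4a10, Cyp4a14, Cyp4a12a, Cyp4a12b, Cyp4a31, Cyp2c23, Cyp2c54, Cyp2d12, Cyp2d22, Cyp2g1, Cyp2u1 and Cyp4f17 had none. CAAAGNNCA occurred before 18 of the 45 genes (40%) and in 5.49% of all 32851 promoter windows of the same length, counted by window. Its form CAAAGTCCA occurred before Cyp3a11, Cyp2c40, Cyp2c67, Cyp2c68, Cyp2c69 and Cyp2c70 (13.3% of the 45, 0.384% of all), and CAAAGGTCA before Cyp3a25 and Cyp3a59 (4.44% and 0.426%). The 18 include tandem copies, so that they are not independent. In a global alignment, Cyp2c40 and Cyp2c69 were identical at 217 of 220 paired bases (98.6%), Cyp3a25 and Cyp3a59 at 238 of 249 (95.6%) and Cyp3a11 and Cyp3a25 at 163 of 207 (78.7%), with the other bases of each sequence set against gaps. GCGTG, the core of the AhR element, occurred before 9 of the 45 (20%), Cyp1a1 and Cyp1b1 among them, and in 28.2% of all windows. TATAAA occurred before 20 (44.4%) and in 12.4% of all windows. AGTTCA and the similar AGGTCA, which nuclear receptors bind, occurred before 8 (17.8%) and 9 (20%), and in 11.8% and 14% of all windows. The other 16 patterns were TNGCGTG, the C/EBP forms TTATGTAA and the looser TTNNGNAA, the STAT form TTCNNNGAA and 1 with an added base, the forkhead forms TGTTTGC and also TGTTTAC, 4 direct repeats of elements like AGGTCA set 1 base apart, 2 repeats of elements like AGTTCA set 4 bases apart, 1 everted repeat with 6 bases between and 2 palindromes of the HNF1 type. They occurred in 0.00913% to 36.8% of all windows and before 0 to 18 P450 genes, and 6 of them before none. Several overlap: the AhR core lies within TNGCGTG, CAAAGGTCA ends in a receptor element, and CAAAGNNCA covers both of its narrower forms. A match describes the letters alone.

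The Cyp4a genes encode omega-hydroxylases of fatty acids, and Cyp4a10, Cyp4a14, Cyp4a31 and Cyp4a32 were listed as targets of PPARalpha. Of the P450 genes, Cyp4a10 and Cyp4a14 varied most, with an SD within genotype of 2.11 and 1.96. That of Cyp4a12a, Cyp4a12b, Cyp4a31 and Cyp4a32 was 0.44 to 0.83, below the 1.52 of Cyp3a11. Cyp4a10 (Gene ID 13117) had 2.65 to 282 FPKM (median 13.8) in LWT and 12.8 to 113 FPKM (median 34.4) in LKO. Cyp4a14 (Gene ID 13119) had 0.51 to 120 FPKM (median 9.43) in LWT and 2.01 to 37.8 FPKM (median 13.0) in LKO. LWT1, LWT2 and LWT3 were the highest mice for both genes, and LWT5, LWT6, LWT7 and LWT8 were the lowest for Cyp4a10.

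The run 36 to 38 was compared with the mean of the other runs in limma, with genotype in the model, a comparison chosen after the values were seen. It called 3 of the 57 genes higher, beside 0.110% of all genes, and 0 lower, beside 0.0392%. At an unadjusted p under 0.05, 15 were higher, beside 9.91% of all genes, and 4 lower, beside 4.18%. After median-ratio scaling these were 13 and 6, beside 721 higher and 863 lower of all genes, where they had been 1266 and 534. The called genes were Cyp4a10 (5.00 ± 0.69, adjusted p = 0.00821), Cyp4a14 (4.47 ± 0.77, adjusted p = 0.0415) and Cyp4a31 (1.00 ± 0.17, adjusted p = 0.0415). In FPKM, LWT1, LWT2 and LWT3 had 167 to 282 for Cyp4a10, and the other 13 mice 2.65 to 113 (median 13.3). For Cyp4a31 they had 1.95 to 3.69 FPKM, and the others 0.53 to 1.87. After median-ratio scaling Cyp4a31 was not called (limma adjusted p = 0.0544). Of 13 Cyp2c genes, 10 had a positive difference and 9 of these an unadjusted p under 0.05, as Cyp2c37 (1.34 ± 0.28, limma adjusted p = 0.0718), but none was called, and Cyp2c70 was lower (-0.48 ± 0.22, limma unadjusted p = 0.0479, adjusted p = 0.348). With each mouse left out in turn, the difference ranged from 4.75 to 5.61 for Cyp4a10, from 4.14 to 5.395 for Cyp4a14 and from 0.80 to 1.13 for Cyp4a31. The number of called P450 genes changed more, with 0 called without LWT1, LWT2 or LWT3, 1 without LWT5, LWT6, LWT7, LKO1 or LKO4, 2 without LWT4 or LKO7, 3 without LKO3 or LKO5, 4 without LWT8, LKO2 or LKO8 and 6 without LKO6. Of all genes, 19 were called with every mouse, and 1, 3 and 6 without LWT1, LWT2 and LWT3. The number was 5, 5, 14, 7 and 11 without LWT5, LWT6, LWT7, LKO1 and LKO4, and 9 without LWT4 or LKO7. It was 24 and 21 without LKO3 and LKO5, 67, 15 and 39 without LWT8, LKO2 and LKO8, and 51 without LKO6. Once the acute-phase score entered the model, 0 P450 genes were called, beside 1 of all genes. The differences were then 3.84 for Cyp4a10, 3.09 for Cyp4a14 and 0.78 for Cyp4a31 (limma adjusted p = 0.0823, 0.217 and 0.222). At an unadjusted p under 0.05, 10 P450 genes were then higher and 5 lower, beside 695 and 574 of all genes, and the median over the 57 genes went from 0.07 to -0.05. All 5 Kupffer cell markers were lower in the run, 3 of them at an unadjusted p under 0.05, and summed to between 51.7 and 66.3 FPKM there and between 63.3 and 137 FPKM in the other mice. So were the 3 leukocyte markers that passed the minimum, 2 of them (S100a8 and Ptprc) at that threshold, and the 5 of that list summed to between 1.61 and 2.11 FPKM in the run and between 2.08 and 21.2 FPKM in the others. All 5 hepatocyte markers were higher in the run, 1 of them (Alb, 0.48) at that threshold, and summed to between 76621 and 93296 FPKM there and between 53151 and 76706 FPKM in the others. All 4 endothelial markers were higher too, none at that threshold, and 1 cholangiocyte marker (Epcam, 0.66) was higher at it. The part of these cells was not tested.

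The run also bears on the genotype difference of these genes. Over all mice it was 0.42 for Cyp4a10 and 0.32 for Cyp4a14 (exact permutation p = 0.693 and 0.746), and with limma array weights the sign was negative for both. With the acute-phase score described below in the model it was 0.67 for Cyp4a10 and 0.56 for Cyp4a14 (limma unadjusted p = 0.307 and 0.348). With a term for run it was 2.19 and 1.99 (limma unadjusted p = 0.00116 and 0.00555, adjusted p = 0.520 for both). Without the run 36 to 38 it was 2.32 ± 0.56 for Cyp4a10 (limma unadjusted p = 0.000891, adjusted p = 0.758) and 2.01 ± 0.59 for Cyp4a14 (limma unadjusted p = 0.00426, adjusted p = 0.758), higher in LKO. In these 13 mice Cyp4a10 lay between 2.65 and 22.8 FPKM (median 4.53) in 5 LWT and between 12.8 and 113 FPKM in 8 LKO, with LWT4 alone inside the LKO range. Of these 5 LWT mice, LWT5 and LWT7 had the highest acute-phase scores of all mice (11.5 and 12.1). Within the runs the difference was 0.30, 3.17 and 2.43 for Cyp4a10 and -0.88, 2.55 and 3.46 for Cyp4a14. Of the 57 genes, 7 then had an unadjusted p under 0.05, 4 of them higher in LKO (Cyp4a10, Cyp4a14, Cyp4a31 and Cyp2c50) and 3 lower (Cyp2c55, Cyp3a59 and Cyp3a11), and none passed after adjustment. Of all genes, 643 were higher and 171 lower at that threshold.

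**Figure D4:**
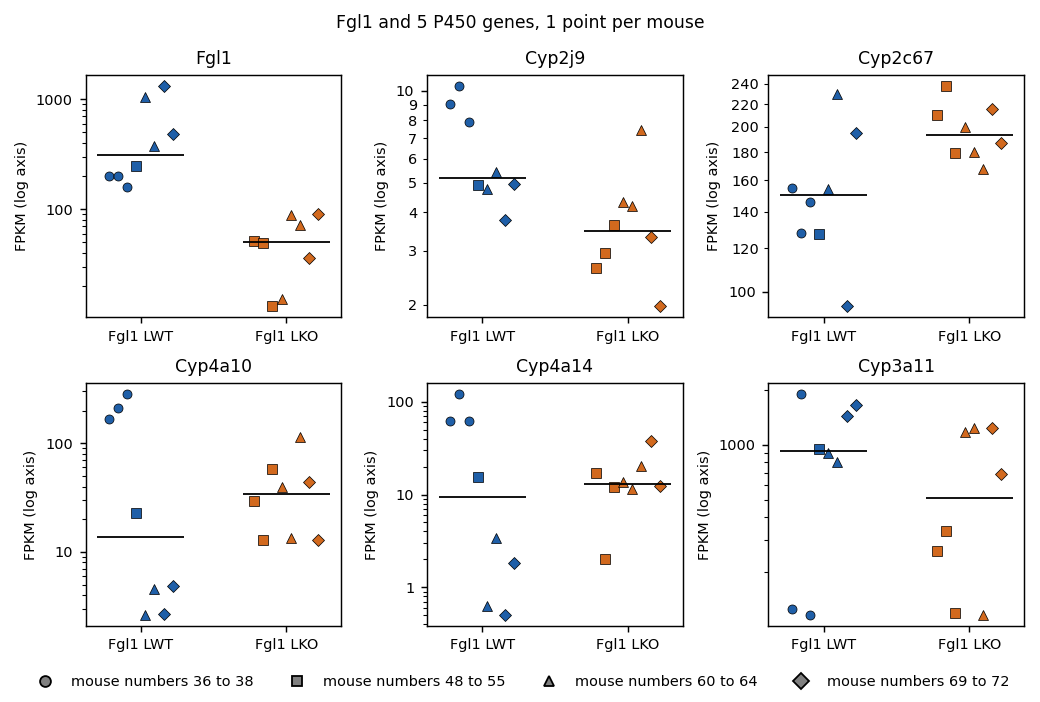
FPKM of Fgl1 and 5 P450 genes in each mouse (points, log axis) by genotype, with marker shape by run of mouse numbers and lines at the group medians. Fgl1 separates the genotypes, and the 3 mice of the run 36 to 38 (circles) are the highest for Cyp4a10, Cyp4a14 and Cyp2j9.

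Hepatic P450 transcripts are known to fall in the acute-phase response, in which the liver raises proteins such as serum amyloid A. An acute-phase score, the mean log2(FPKM + 1) of Saa1, Saa2, Orm2 and Lcn2, lay between 4.03 and 12.1 (median 5.83) in LWT and between 4.17 and 10.6 (median 8.29) in LKO. All 3 mice of the run 36 to 38 had low scores (LWT1 4.03, LWT2 4.49 and LWT3 4.47), and so had LKO3 (4.17) and LWT4 (4.81) of the next run. In limma with genotype in the model, the slope on the score was negative for 45 of the 57 genes and for 8805 of 12766 genes in all, with medians of -0.03 and -0.01 per unit of score. After median-ratio scaling it was negative for 37 of the 57 and for 6406 of all genes. It passed an adjusted p of 0.05 for 5 P450 genes, all with a negative slope, beside 0.940% of all genes, and for none with a positive slope, beside 0.627%. At an unadjusted p under 0.05, 21 slopes were negative, beside 15.0%, and 1 was positive, that of Cyp3a13, beside 3.26%. Of all genes, 1916 were negative and 416 positive at that threshold, but 931 and 939 after median-ratio scaling, with 17 and 2 of the P450 genes, so that the direction over all genes depends on the scaling. The P450 system list had 21 negative slopes of 26, with 8 at an unadjusted p under 0.05, and Ephx1, the microsomal epoxide hydrolase, was called (limma adjusted p = 0.0140).

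The 5 genes were Cyp4a14 (slope -0.54 ± 0.11, limma adjusted p = 0.0259), Cyp2c40 (-0.32 ± 0.07, 0.0265), Cyp4a10 (-0.57 ± 0.12, 0.0284), Cyp4b1 (-0.13 ± 0.03, 0.0362) and Cyp2c23 (-0.07 ± 0.02, 0.0497). Cyp4b1, a family 4 gene best known from the lung, had 3.05 to 12.4 FPKM, and Cyp2c23, an arachidonic acid epoxygenase gene, 98.9 to 215 FPKM. Cyp2c40, a female-biased gene, had 4.09 to 68.0 FPKM (median 21.0) in LWT and 9.76 to 65.1 FPKM (median 21.6) in LKO. Its neighbour Cyp2c69 went with it, with a slope of -0.28 ± 0.07 that was not called (limma adjusted p = 0.0646). Of the 4 PPARalpha targets, all had a negative slope and an unadjusted p under 0.05. Of the 7 pericentral genes, 5 slopes were negative and 3 of these had an unadjusted p under 0.05, and Cyp2e1 (-0.03) was not among them. Cyp3a11 had a slope of 0.18 ± 0.13 (limma adjusted p = 0.466).

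The number of called genes depended on few mice. No P450 gene was called without the run 36 to 38, with the run as a term, or without LWT5 and LWT7, the mice farthest from the median score. Without LWT3, LWT5 or LWT7 alone 0 were called, without LWT1 or LKO5 1, without LWT2 or LKO3 2, without LWT4 or LKO4 3, without LKO7 8 and without LKO6 9. Of all genes, 200 were called with every mouse, and 87, 55 and 97 without LWT3, LWT5 and LWT7. The number was 138 and 79 without LWT1 and LKO5, and 85 and 73 without LWT2 and LKO3. It was 116 and 132 without LWT4 and LKO4, 412 without LKO7 and 304 without LKO6. With each mouse left out in turn, the slopes ranged from -0.61 to -0.48 for Cyp4a14, from -0.36 to -0.28 for Cyp2c40, from -0.61 to -0.51 for Cyp4a10, from -0.15 to -0.11 for Cyp4b1 and from -0.078 to -0.054 for Cyp2c23. Without the run 36 to 38 they were -0.30, -0.28, -0.29, -0.13 and -0.047 in the same order. After median-ratio scaling 4 were called, Cyp2c23 no longer among them, and over all genes the split of calls went from 80 positive and 120 negative to 103 and 39 (86 and 65 after quantile normalization, in which Cyp2c23 also was not called). Markers of hepatocytes and of other cells also moved with the score. All 5 hepatocyte, 4 endothelial and 5 stellate cell markers were negative in slope, with 3, 4 and 2 of them at an unadjusted p under 0.05. The hepatocyte markers Ttr and Cps1 and the endothelial marker Stab2 were called. In the other direction, the 3 leukocyte markers that passed the minimum and 3 of 4 cholangiocyte markers had positive slopes, with S100a8 (0.34 ± 0.09, limma adjusted p = 0.0542) and Sox9 (0.06 ± 0.03, limma adjusted p = 0.239) at an unadjusted p under 0.05. Their part in the slopes of the P450 genes was not tested.

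**Figure D5:**
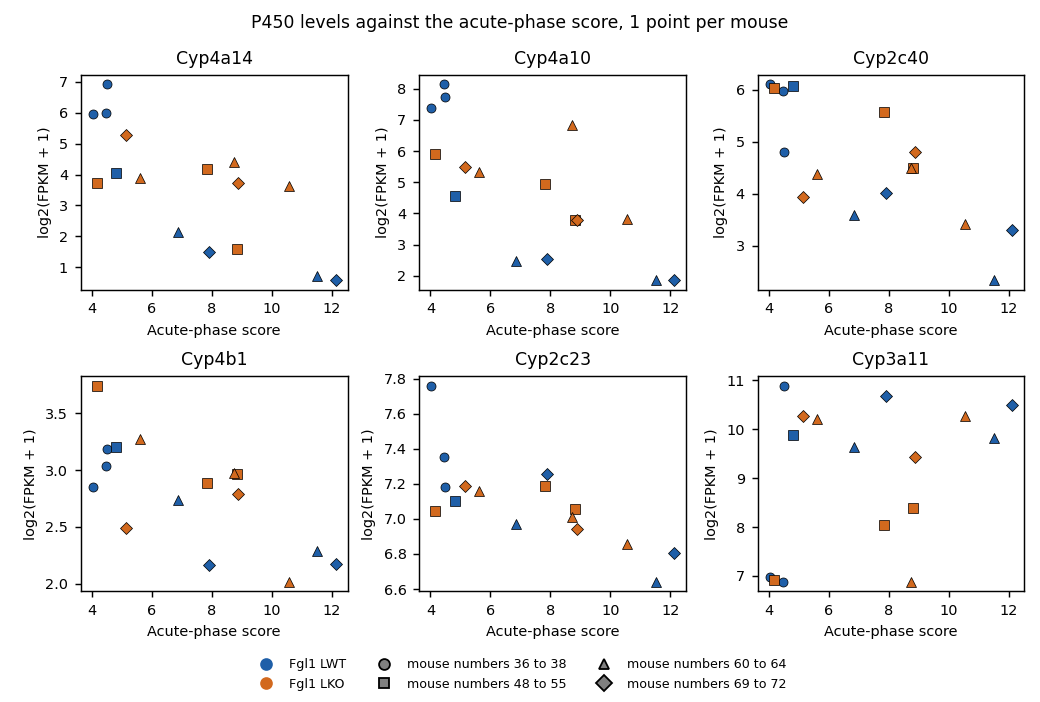
Level of 6 P450 genes in log2(FPKM + 1) against the acute-phase score, 1 point per mouse, colored by genotype with marker shape by run of mouse numbers. Cyp4a14, Cyp4a10, Cyp2c40, Cyp4b1 and Cyp2c23 are lower in mice with a high score, and Cyp3a11 is not.

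Relations between genes across the 16 mice were computed for 12 pairs, after each genotype mean had been subtracted, with permutation tests adjusted over the pairs. Cyp4a10 and Cyp4a14 varied together (r = 0.923, permutation p = 0.00019, adjusted 0.00138). Their ranks gave rho = 0.903 (permutation p = 0.00025, adjusted 0.003). Without LWT2 and LWT3, r was 0.873 (permutation p = 0.001, adjusted 0.012), without the run 36 to 38 it was 0.738, and within run and genotype 0.685. Cyp4a12a and Cyp4a12b, whose transcripts share windows as given above, had r = 0.911 (permutation p = 0.00023, adjusted 0.00138) and rho = 0.785 (permutation p = 0.001, adjusted 0.006). Without LWT2 and LWT7, r was 0.643 (permutation p = 0.018, adjusted 0.072), so that the call did not hold without those mice. Without the run 36 to 38, which holds LWT2, r was 0.927, and within run and genotype it was 0.961. Both of these values keep LWT7, the lowest mouse for both genes (13.3 and 4.71 FPKM). They therefore do not show whether the relation holds without it.

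Cyp4a14 and Saa1 went in opposite directions (r = -0.788, permutation p = 0.0015, adjusted 0.006). Their ranks gave rho = -0.727 (permutation p = 0.00334, adjusted 0.0134). Without LWT2 and LWT7, r was -0.727 (permutation p = 0.00782, adjusted 0.0469), without the run 36 to 38 it was -0.656, and within run and genotype -0.587. Saa1 is part of the acute-phase score, so that this pair is not a separate result beside the slope of Cyp4a14 on that score. The other 9 pairs did not pass, with adjusted permutation p of at least 0.169 for r and 0.250 for rho, and of at least 0.364 for r with 2 mice left out. Among these were relations of Cyp4a genes with other PPARalpha targets. Cyp4a14 with Pdk4 had r = 0.449 and rho = 0.474 (permutation p = 0.0789 and 0.0868), but r was -0.0021 without the run 36 to 38 and 0.158 within run and genotype. Cyp4a10 with Angptl4 had r = 0.338 and rho = 0.324 (permutation p = 0.279 and 0.222), and r was 0.058 without the run and -0.046 within run and genotype. Cyp3a11 with Saa1 had r = 0.327 and rho = 0.224 (permutation p = 0.239 and 0.421), and r was 0.091 without the run and 0.030 within run and genotype. Cyp2f2 and Cyp2e1, of opposite zones, had r = -0.447 and rho = -0.379 (permutation p = 0.0843 and 0.171), and r was -0.183 without the run and -0.086 within run and genotype. Cyp1a2 with Cyp1a1, Cyp2e1 with Cyp1a2, Cyp2d9 with Cyp4a12a, Cyp2b10 with Cyp2c55 and Cyp2b10 with Saa1 had r between -0.449 and 0.302 (permutation p from 0.0678 to 0.529) and rho between -0.413 and 0.268 (permutation p from 0.104 to 0.871). Some of these were farther from 0 without the run. Cyp2b10 with Saa1 went from r = -0.449 to -0.538 without the run and -0.572 within run and genotype. Cyp2e1 with Cyp1a2 went from 0.181 to 0.380 and 0.312, and Cyp2b10 with Cyp2c55 from -0.294 to -0.465 and -0.291. Cyp1a2 with Cyp1a1 (0.175) had 0.178 and 0.209, and Cyp2d9 with Cyp4a12a (0.302) had 0.235 and 0.301. Without LKO3 and LWT2, the mice farthest from its median, Cyp2b10 had r = -0.125 with Saa1 and -0.0037 with Cyp2c55. With the 2 farthest mice of each pair left out, r was 0.444 for Cyp2e1 with Cyp1a2, 0.303 for Cyp1a2 with Cyp1a1, 0.334 for Cyp2d9 with Cyp4a12a, 0.370 for Cyp4a14 with Pdk4, 0.145 for Cyp4a10 with Angptl4, 0.316 for Cyp3a11 with Saa1 and -0.254 for Cyp2f2 with Cyp2e1.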

How the data were processed

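The authors sequenced strand-specific paired-end libraries of liver mRNA from 16 mice. They deposited FPKM values, rounded to 2 decimals, after alignment to mm39 with HISAT and Bowtie2 (submitters' processing notes). Versions, counting and annotation release are not given in the sources used here, and read depth is unknown. FPKM are not counts, so log2(FPKM + 1) of the 12770 genes that reached the mean of 0.1 was fitted in limma 3.58.1 (R 4.3.3; lmFit, eBayes, trend). Tests were two-sided and Benjamini-Hochberg values were taken across the whole table, with a threshold of 0.05. Such differences understate changes of low genes. Single genes had exact permutation tests, and correlations 100000 resamples within genotype (Python 3.11.15, numpy 2.4.6, scipy 1.17.1, pandas 2.3.3). The fits were tested on simulated data, in which values were independent between mice and the largest spreads were cut down. Spreads as wide as that of Cyp4a10 were thus not covered. Genes were named by level, p, spread between mice or list (receptor targets, sex, zone). The genes, lists and tests were chosen with earlier results of these data known. Alternatives were other pseudocounts, filters, scalings, weights, blocks, covariates and left-out mice.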

Additional observations from a re-analysis of the deposited data

Results flagged for a closer look

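Single mice far from the others of their genotype were sought for 34 named P450 genes, their share of the summed FPKM and the acute-phase score, in 72 groups of 8 mice. In 3 groups the outermost mouse stood apart by a large share of the whole range (Dixon's criterion), and chance alone gives about 1 in 20. Cyp2d26 was highest among LKO mice in LKO6, with 642.64 FPKM. Cyp4a14 was lowest among LKO mice in LKO2, with 2.01 FPKM. Cyp4a32 was highest among LKO mice in LKO3, with 16.7 FPKM.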

How the results depend on the processing

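The alternatives for Fgl1, the comparison of the run 36 to 38 and its alternatives were chosen after seeing the data. No P450 gene was called by genotype under any alternative (limma). Of all genes, 0 were called, but 1 with the replicate block, 1 with a term for run, 1 without the run 36 to 38 and 1 with the score as a covariate, and 0 to 0 when each mouse was left out. Fgl1 lay at -3.11 with the block (limma adjusted p = 0.0197), -3.53 with the run (0.0250), -3.71 without the run 36 to 38 (0.0453) and -3.27 with the score (7.03e-09), past the threshold in each. Fgl1 itself rose with the acute-phase score, with a slope of 0.37 ± 0.03 (limma adjusted p = 1.3e-05). P450 genes at an unadjusted p under 0.05 numbered 2 (895 of all genes), but 4 (925) with the block, 6 (1032) with the run, 7 (814) without the run 36 to 38, and 2 to 4 with 1 mouse left out (4 without LWT3 or LKO6). The difference of Cyp4a10 was -0.025 and that of Cyp4a14 -0.10 with array weights, opposite in sign to 0.42 and 0.32. With 1 mouse left out, that of Cyp4a10 ranged from 0.030 (without LWT5) to 0.93 (without LWT3), and that of Cyp4a14 from -0.089 (without LWT7) to 0.81 (without LWT2), with -0.074 without LWT5. Slopes on the score were called for 200 genes, but 1 with the block, 23 with the run, 25 without the run 36 to 38, 25 without LWT5 and LWT7, and 55 to 412 with 1 mouse left out. P450 slopes called numbered 5, but 3 with no filter, which tests more genes, 0 with the block, 0 with the run, 0 without the run 36 to 38, 0 without LWT5 and LWT7, and 0 to 9 with 1 mouse left out. Negative P450 slopes at an unadjusted p under 0.05 numbered 21 (1916 of all genes), but 7 (471) with the block, 12 (1003) with the run and 11 (1331) without LWT5 and LWT7. P450 genes called between the run 36 to 38 and the others numbered 3 (19 of all genes). They numbered 1 (8) with pseudocount 0.01, 1 (18) with no filter, 9 (265) with array weights and 0 (1) with the score. With 1 mouse left out they numbered 0 to 6, and all genes called from 1 (without LWT1) to 67 (without LWT8). The block could not be fitted beside the runs. The cause of these shifts was not tested. The same replicate number in both genotypes gave no pairing, since deviations of same-numbered mice correlated by over 0.1 in 3 of 8 pairs, from -0.16 to 0.45. Each library is 1 mouse and its depth is unknown, so that the precision of low genes, 13 of them under 1 FPKM, cannot be given. The run 36 to 38 holds LWT mice only, so that genotype and run cannot be told apart there.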
